A study of Mus musculus with 12 samples.

Results

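The transcripts described here belong to 9 genes of bone morphogenetic protein (BMP) signaling, the ligand genes Bmp2, Bmp4, Bmp6 and Bmp8b and the target genes Id1, Id2, Id3, Msx1 and Msx2. They were chosen by symbol, 9 of the 23412 genes counted, and were compared across 4 genotypes of mouse embryonic stem cells (mESCs). These genes, and the lists of pathway genes and markers below, were chosen with earlier results of these data known. The shares of all genes given beside their counts are therefore a description and not a test. BMPs are secreted ligands of the transforming growth factor β superfamily. They bind pairs of type I and type II serine/threonine kinase receptors, which phosphorylate SMAD1, SMAD5 and SMAD9, and these join SMAD4 in the nucleus and act on target genes. In mESCs, BMP signals and the Id genes they induce are known to hold back neural differentiation alongside leukemia inhibitory factor (LIF).

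The study asked what the loss of the nucleosome-binding proteins HMGN1 and HMGN2 does to transcription in v6.5 mESCs, a male line. RNA-Seq was carried out on 12 libraries, 3 biological replicates for each genotype, from cells grown in serum and LIF on gelatin and collected at 48 h. Editing removed a base pair from an Hmgn1 exon on both alleles to give Hmgn1-/- mESCs. For Hmgn2-/- mESCs, an Hmgn2 exon gained a base pair, also on both alleles. Hmgn1-/-Hmgn2-/- mESCs come from the Hmgn2-/- line, in which Hmgn1 was edited next, and WT mESCs are the unedited line. Each knockout is a clone grown from a single cell, so the replicates of a genotype show the spread of 1 clone, and a difference between clones cannot be told apart from a difference between genotypes. The libraries held 31448468, 17614490 and 28524108 counts in WT mESCs, 25953244, 21059862 and 21993042 in Hmgn1-/- mESCs, 25908890, 26486535 and 17337908 in Hmgn2-/- mESCs and 31005479, 22151507 and 26410485 in Hmgn1-/-Hmgn2-/- mESCs. Levels are given in the order of the replicates, as counts relative to the library total with TMM factors from edgeR (TMM-scaled CPM).

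The edited genes were examined first. Hmgn1 had 662, 600 and 614 TMM-scaled CPM in WT mESCs, 138, 139 and 141 in Hmgn1-/- mESCs, 545, 556 and 640 in Hmgn2-/- mESCs and 21.5, 19.9 and 21.4 in Hmgn1-/-Hmgn2-/- mESCs. Hmgn2 had 137, 123 and 120 TMM-scaled CPM in WT mESCs, 105, 113 and 109 in Hmgn1-/- mESCs, 50.7, 54.5 and 53.7 in Hmgn2-/- mESCs and 53.8, 50.5 and 54.2 in Hmgn1-/-Hmgn2-/- mESCs. Each edited gene was therefore lowest in the lines labelled as its knockouts, with no overlap with the unedited lines. Of the stretches of 100 bases in the exons, 17.0% for Hmgn2 and 1.61% for Hmgn1 are also found in other genes. What these add to the counts was not tested. The pluripotent identity of the cells was also checked. All 10 listed markers of pluripotent stem cells were detected in every library, with Pou5f1 the most abundant of them at 1647 to 2167 TMM-scaled CPM, and their summed level ran from 6585 to 7854 over the 12 libraries. None of the 10 passed the threshold used below against WT mESCs by edgeR or by DESeq2, whereas 5, 5 and 6 of them had an unadjusted p under 0.05 in Hmgn1-/-, Hmgn2-/- and Hmgn1-/-Hmgn2-/- mESCs, respectively.

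Passing the threshold required a log2 fold change (log2 FC) of at least 1 in size together with an adjusted p under 0.01, adjusted over all genes tested. Bmp2 had too few counts to be tested, and the other 8 genes were tested in each comparison. In Hmgn1-/- mESCs, 1 of the 8 was higher than in WT mESCs, where 0.898% of 13917 genes were higher, and 3 were lower, where 5.08% were. In Hmgn2-/- mESCs, 1 was higher, beside 0.776% of 14047 genes, and 2 were lower, beside 4.38%. In Hmgn1-/-Hmgn2-/- mESCs, 1 was higher, beside 1.30% of 14128 genes, and 2 were lower, beside 5.00%. Bmp6 was the gene that rose in each knockout, Id2 and Id3 fell in each, and Bmp8b fell in Hmgn1-/- mESCs. The median log2 FC of the 8 genes was −0.35, −0.54 and −0.12 in the order Hmgn1-/-, Hmgn2-/- and Hmgn1-/-Hmgn2-/-, against 0.00, 0.01 and 0.00 for all genes tested. The 3 comparisons use the same WT libraries, so their results are given side by side and are not independent of each other.

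**Figure D1:**
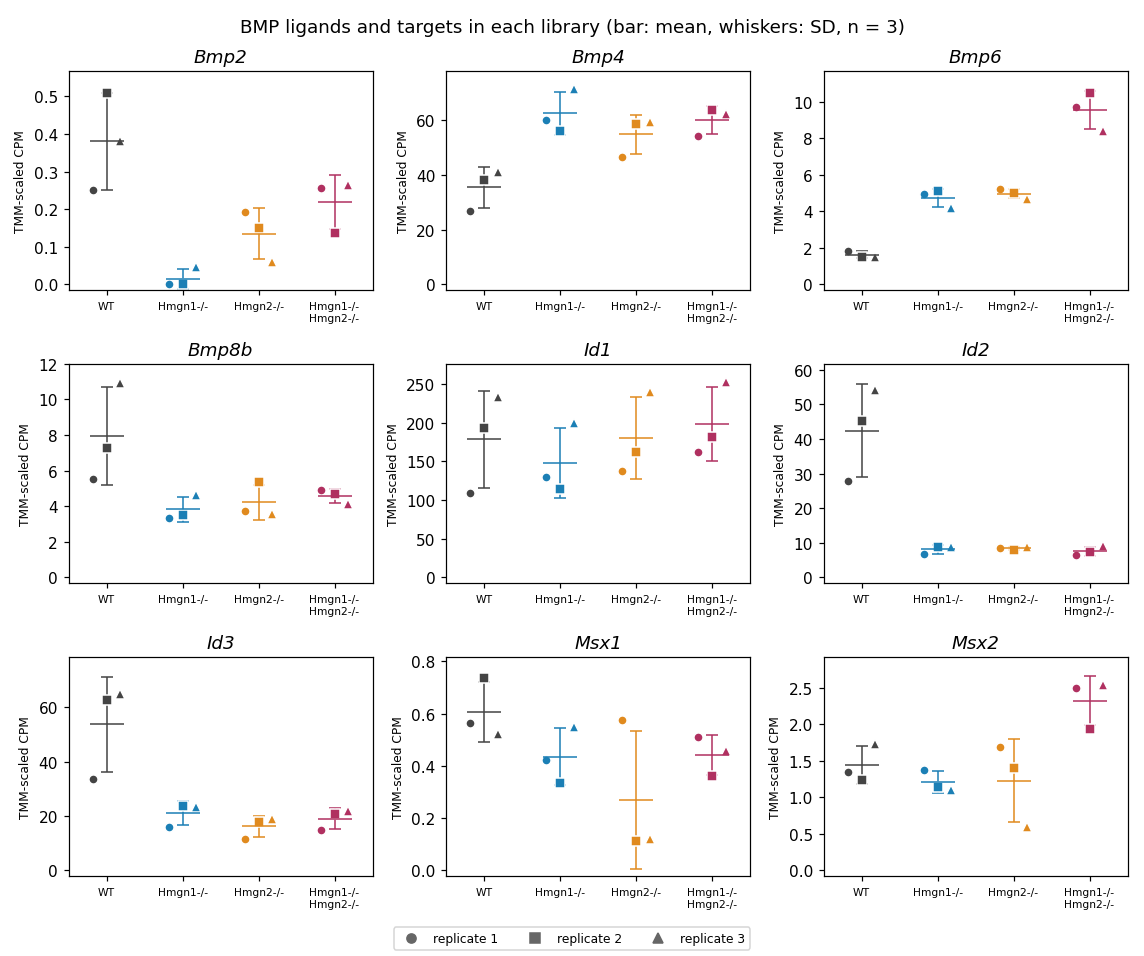
Level of each BMP ligand and target gene in each library, in TMM-scaled CPM, by genotype; symbols mark the replicates, bars the mean and whiskers the SD (n = 3). Bmp6 ran from 8.42 to 10.5 in Hmgn1-/-Hmgn2-/- mESCs and from 1.53 to 1.84 in WT mESCs, and Id2 was at or above 27.9 in WT mESCs and at or below 8.99 in every knockout library.

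Among the ligands tested, Bmp6 had the largest log2 FC in each comparison with WT mESCs. BMP6 is known for inducing bone and, in the adult liver, hepcidin. Its transcript had 1.84, 1.53 and 1.53 TMM-scaled CPM in WT mESCs, 4.95, 5.11 and 4.17 in Hmgn1-/- mESCs, 5.22, 5.00 and 4.70 in Hmgn2-/- mESCs and 9.69, 10.5 and 8.42 in Hmgn1-/-Hmgn2-/- mESCs. All knockout libraries were above all WT libraries, the Hmgn1-/- and Hmgn2-/- libraries overlapped, and those of the double knockout stood above both. Bmp6 rose 2.88-fold in Hmgn1-/- mESCs (log2 FC 1.53, SE 0.194, adjusted p = 5.62e-05). It rose 3.04-fold in Hmgn2-/- mESCs (log2 FC 1.60, SE 0.185, adjusted p = 0.000165). In Hmgn1-/-Hmgn2-/- mESCs the rise was 5.78-fold (log2 FC 2.53, SE 0.165, adjusted p = 1.09e-07).

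The knockouts were also compared with each other. Against Hmgn1-/- mESCs, 1 of the 8 genes passed the threshold in Hmgn1-/-Hmgn2-/- mESCs, beside 0.511% of 13710 genes, and it was Bmp6 (log2 FC 1.00, SE 0.135, adjusted p = 0.000431). That log2 FC lies at the fold limit: it was 0.92 without Hmgn1-/- replicate 3, 0.99 without Hmgn1-/-Hmgn2-/- replicate 1 and 0.93 without Hmgn1-/-Hmgn2-/- replicate 2, each under the limit. Against Hmgn2-/- mESCs, the line from which the double knockout was made, Bmp6 had a log2 FC of 0.93 (SE 0.130, adjusted p = 0.0304), and 0 of the 8 genes passed the threshold by edgeR, beside 0.0434% of 13816 genes. DESeq2 also gave 0, and 2 genes had an unadjusted p under 0.05. Between Hmgn2-/- and Hmgn1-/- mESCs, 0 of the 8 genes passed by edgeR or by DESeq2, beside 0.176% of 13648 genes, and 0 had an unadjusted p under 0.05. The log2 difference of Bmp6 between these lines was 0.07, with a 95% interval from −0.25 to 0.40.

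Bmp6 lies on chromosome 13 from 38345107 to 38500302 of GRCm38, on the plus strand. Its exons share 224 bases with those of Txndc5 on the opposite strand, and whether reads were counted by strand is not stated. Txndc5 had a mean of 121 TMM-scaled CPM in WT mESCs and log2 FC values of −0.01, 0.03 and 0.07 in the order Hmgn1-/-, Hmgn2-/- and Hmgn1-/-Hmgn2-/-. Among 11549 genes averaging 50 counts or more, those with the pattern most like that of Bmp6 over the 12 libraries were Amn, Fgf10 and Pth1r. Their root mean square differences from Bmp6, in log2 units relative to the WT mean, were 0.19, 0.22 and 0.26, beside a median of 1.64 over all genes searched. Amn, which encodes amnionless, a partner of the endocytic receptor cubilin, had log2 FC values of 1.74, 1.79 and 2.66 in the same order of genotypes.

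Amn is also among 14 listed markers of primitive and parietal endoderm, of which 8, 9 and 12 rose in the order Hmgn1-/-, Hmgn2-/- and Hmgn1-/-Hmgn2-/-. Of all genes tested, 0.898%, 0.776% and 1.30% rose in that order. The summed level of the list was 604, 783 and 819 TMM-scaled CPM in WT mESCs, 916, 772 and 833 in Hmgn1-/- mESCs, 1027, 964 and 803 in Hmgn2-/- mESCs and 1804, 1800 and 1690 in Hmgn1-/-Hmgn2-/- mESCs. The double knockout stood apart in the sum, and the other groups overlapped. Sparc was the most abundant gene of the list in every WT library, at 266, 369 and 401 TMM-scaled CPM, and Col4a1 in every Hmgn1-/-Hmgn2-/- library, at 391, 379 and 366. Lama1 was the most abundant in the first and second replicates of each of the other knockouts, and Sparc in the third. Sparc was under all WT libraries in the Hmgn1-/- and Hmgn2-/- libraries, with a log2 FC of −0.92 (adjusted p = 9.29e-05) and −0.77 (adjusted p = 0.00294) that did not reach the fold limit. In Hmgn1-/-Hmgn2-/- mESCs it overlapped with WT (log2 FC −0.22, adjusted p = 0.150). Without Sparc, a gene left out after its values were seen, the sums (TMM-scaled CPM) lay between 338 and 418 for WT mESCs, between 615 and 739 for Hmgn1-/- mESCs, between 577 and 849 for Hmgn2-/- mESCs and between 1377 and 1526 for Hmgn1-/-Hmgn2-/- mESCs, so that all knockout libraries were above all WT libraries. No gene of the list was at 0 in any library. The part of such cells in the rise of Bmp6 was not tested, and in bulk RNA fewer or more cells of a type cannot be told apart from less or more RNA per cell.

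Bmp4, which had the highest level per kilobase of exon of the 4 ligand genes and is a factor for mesoderm and germ cell formation in the embryo, had 27.0, 38.3 and 41.3 TMM-scaled CPM in WT mESCs, 60.0, 56.3 and 71.5 in Hmgn1-/- mESCs, 46.8, 58.8 and 59.3 in Hmgn2-/- mESCs and 54.3, 63.8 and 62.3 in Hmgn1-/-Hmgn2-/- mESCs. Every knockout library was above every WT library, and the knockouts overlapped. The exons of Bmp4 share 89 bases with those of Gm15217 on the opposite strand, which had a mean of 0.0891 TMM-scaled CPM in WT mESCs. The log2 FC of Bmp4 stayed under the fold limit in each comparison, at 0.83 in Hmgn1-/- mESCs (1.77-fold, SE 0.130, adjusted p = 0.000320), 0.64 in Hmgn2-/- mESCs (1.56-fold, SE 0.152, adjusted p = 0.0129) and 0.77 in Hmgn1-/-Hmgn2-/- mESCs (1.70-fold, SE 0.125, adjusted p = 0.000399). By the adjusted p alone, without a fold limit, 5 of the 8 genes differed in Hmgn1-/- mESCs, where 17.3% of all genes did. The count was 3 in Hmgn2-/- mESCs, beside 9.97%, and 4 in Hmgn1-/-Hmgn2-/- mESCs, beside 18.0%. The gene added by this rule was Bmp4, in Hmgn1-/- and Hmgn1-/-Hmgn2-/- mESCs.

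Bmp8b, a ligand known from germ cell development and brown fat, had 5.53, 7.30 and 10.9 TMM-scaled CPM in WT mESCs, 3.34, 3.53 and 4.63 in Hmgn1-/- mESCs, 3.72, 5.34 and 3.57 in Hmgn2-/- mESCs and 4.93, 4.70 and 4.13 in Hmgn1-/-Hmgn2-/- mESCs. The WT libraries lay above all knockout libraries, and the WT library nearest to them was replicate 1. Bmp8b fell 2.07-fold in Hmgn1-/- mESCs (log2 FC −1.05, SE 0.229, adjusted p = 0.00354). The log2 FC was −0.89 in Hmgn2-/- mESCs (SE 0.253, adjusted p = 0.0308) and −0.78 in Hmgn1-/-Hmgn2-/- mESCs (SE 0.212, adjusted p = 0.0128), neither past the threshold. These calls rested on single libraries. In Hmgn1-/- mESCs the call was lost without WT replicate 3 (log2 FC −0.73, adjusted p = 0.0186), Hmgn1-/- replicate 1 (−0.95, adjusted p = 0.0277) or Hmgn1-/- replicate 2 (adjusted p = 0.0174). Without WT replicate 1 the threshold was also passed in Hmgn2-/- mESCs (−1.11, adjusted p = 0.00939) and in Hmgn1-/-Hmgn2-/- mESCs (−1.01, adjusted p = 0.000106). Of the 3781 stretches of 100 bases in the exons of Bmp8b, 109 (2.88%) are also found in its neighbour Bmp8a. The exons of Bmp8b share 339 bases with those of Gm17244, which is not among the genes counted, and 133 bases with those of Ppie, both on the opposite strand. Ppie had 62.1 TMM-scaled CPM in WT mESCs and log2 FC values of 0.09, 0.09 and −0.10 in the order Hmgn1-/-, Hmgn2-/- and Hmgn1-/-Hmgn2-/-.

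Bmp2, a ligand of heart and bone formation, was close to the limit of detection. Its counts were 8, 9 and 11 in WT mESCs, 0, 0 and 1 in Hmgn1-/- mESCs, 5, 4 and 1 in Hmgn2-/- mESCs and 8, 3 and 7 in Hmgn1-/-Hmgn2-/- mESCs. All Hmgn1-/- libraries were at or under 3 counts, the floor used here, which covers counting error only. The highest level was 0.509 TMM-scaled CPM, in WT replicate 2. Bmp2 was removed by the filter on low counts and is given no fold change. With every gene of at least 1 count in the fit, it passed the threshold in Hmgn1-/- mESCs, which brought the count there to 5 genes, and the count was also 5 without Hmgn1-/- replicate 3, where Bmp2 passed the filter.

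The target genes Id1, Id2 and Id3 encode helix-loop-helix proteins that lack a DNA-binding region and sequester E proteins. Id2, a gene of the minus strand at chromosome 12 from 25093799 to 25097140, had the largest fall of the 5 targets in each comparison with WT mESCs. It had 27.9, 45.2 and 54.2 TMM-scaled CPM in WT mESCs, 6.67, 8.88 and 8.80 in Hmgn1-/- mESCs, 8.60, 7.87 and 8.80 in Hmgn2-/- mESCs and 6.40, 7.27 and 8.99 in Hmgn1-/-Hmgn2-/- mESCs. The lowest WT library was above every knockout library, and the 3 knockouts shared a narrow range. Id2 fell 5.22-fold in Hmgn1-/- mESCs (log2 FC −2.38, SE 0.202, adjusted p = 1.58e-06). The fall was 5.00-fold in Hmgn2-/- mESCs (log2 FC −2.32, SE 0.210, adjusted p = 3.64e-05) and 5.59-fold in Hmgn1-/-Hmgn2-/- mESCs (log2 FC −2.48, SE 0.204, adjusted p = 1.09e-06). Between the knockouts the log2 differences of Id2 had 95% intervals from −0.26 to 0.37 (Hmgn2-/- against Hmgn1-/-), from −0.43 to 0.23 (Hmgn1-/-Hmgn2-/- against Hmgn1-/-) and from −0.48 to 0.17 (Hmgn1-/-Hmgn2-/- against Hmgn2-/-).

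Id3, on chromosome 4 from 136143497 to 136145755 on the plus strand, followed with smaller changes. It had 33.6, 62.8 and 64.7 TMM-scaled CPM in WT mESCs, 16.0, 23.8 and 23.2 in Hmgn1-/- mESCs, 11.6, 17.9 and 18.8 in Hmgn2-/- mESCs and 14.7, 20.6 and 21.9 in Hmgn1-/-Hmgn2-/- mESCs. Again no knockout library reached the lowest WT library, and the first replicate was the lowest of each genotype. Id3 fell 2.55-fold in Hmgn1-/- mESCs (log2 FC −1.35, SE 0.206, adjusted p = 0.000246). It fell 3.31-fold in Hmgn2-/- mESCs (log2 FC −1.73, SE 0.243, adjusted p = 0.000631) and 2.81-fold in Hmgn1-/-Hmgn2-/- mESCs (log2 FC −1.49, SE 0.206, adjusted p = 0.000111). The difference between Hmgn2-/- and Hmgn1-/- mESCs was −0.38 on the log2 scale, with a 95% interval from −0.81 to 0.05.

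Id1, the target with the highest level per kilobase of exon, did not show the pattern of Id2 and Id3. It had 109, 193 and 233 TMM-scaled CPM in WT mESCs, 130, 114 and 199 in Hmgn1-/- mESCs, 138, 162 and 240 in Hmgn2-/- mESCs and 162, 182 and 253 in Hmgn1-/-Hmgn2-/- mESCs. The groups overlapped, and the libraries of a genotype lay farther apart than the means of the genotypes. Replicate 3 was the highest of each genotype. At each replicate number the double knockout was above both other knockouts, and it was not above WT at each. The log2 FC of Id1 was −0.27 in Hmgn1-/- mESCs (95% interval −0.74 to 0.21), 0.02 in Hmgn2-/- mESCs (−0.52 to 0.57) and 0.16 in Hmgn1-/-Hmgn2-/- mESCs (−0.28 to 0.61). The adjusted p values were 0.409, 0.965 and 0.608, respectively. These intervals do not reach the fold limit of the threshold in either direction. Whether the change of Id1 differs from that of Id2 or Id3 was not tested.

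Msx1 and Msx2, homeobox genes of limb and craniofacial development, were low. Msx1 ran from 0.114 to 0.735 TMM-scaled CPM over the 12 libraries, with 2 to 18 counts, and its log2 FC was −0.44, −1.03 and −0.39 in the order Hmgn1-/-, Hmgn2-/- and Hmgn1-/-Hmgn2-/-, with adjusted p values of 0.423, 0.227 and 0.450. In Hmgn2-/- mESCs, where its counts were 15, 3 and 2, the 95% interval reached from −2.23 to 0.16, and the log2 FC was −2.30 without Hmgn2-/- replicate 1 (adjusted p = 0.0178) and −0.61 without Hmgn2-/- replicate 2. Msx2 had 1.34, 1.24 and 1.74 TMM-scaled CPM in WT mESCs and 2.50, 1.94 and 2.54 in Hmgn1-/-Hmgn2-/- mESCs, and ran from 0.595 to 1.69 in the other knockouts. The double knockout lay above every other library in Msx2, with a log2 FC of 0.69 against WT mESCs (SE 0.233, adjusted p = 0.0405) that did not pass the threshold.

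**Figure D2:**
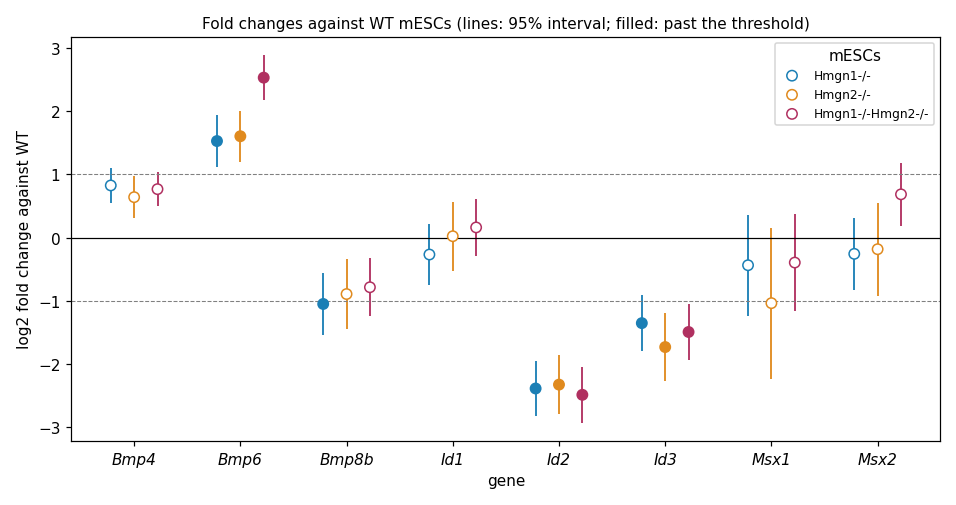
Log2 FC against WT mESCs of the 8 tested genes in each knockout, with 95% intervals from edgeR's fit; filled points passed the threshold and dashed lines mark a log2 FC of 1 in size. Bmp6 lies at 1.53, 1.60 and 2.53 and Id2 at −2.38, −2.32 and −2.48 in the order Hmgn1-/-, Hmgn2-/- and Hmgn1-/-Hmgn2-/-, whereas the intervals of Id1 include 0.

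Over all 4 genotypes at once, 5 of the 8 genes differed at an adjusted p under 0.01, Bmp4, Bmp6, Bmp8b, Id2 and Id3, beside 15.4% of 14323 genes. Bmp8b was lost from these, leaving 4, without WT replicate 2, WT replicate 3, Hmgn1-/- replicate 1, Hmgn1-/- replicate 2, Hmgn1-/-Hmgn2-/- replicate 2 or Hmgn1-/-Hmgn2-/- replicate 3. Bmp2 was tested and added, for a count of 6, without Hmgn2-/- replicate 1 or Hmgn2-/- replicate 3.

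It was then asked whether the double knockout departs from the sum of the log2 changes of the other knockouts. Of the 8 genes, 2 departed past the threshold, Id2 and Id3, beside 3.48% of 14323 genes. Id2 was 2.23 log2 units above the sum (SE 0.295, adjusted p = 0.000148), since its level was about as low in each knockout alone as in both together. The departure of Id3 was 1.60 (SE 0.342, adjusted p = 0.00561). For Bmp6 it was −0.59 (SE 0.208, adjusted p = 0.0775), with a 95% interval from −1.03 to −0.15. The departure of Id2 stayed past the threshold without any of the 12 libraries in turn, at 2.01 to 2.47. That of Id3 missed it without WT replicate 2 (1.48), WT replicate 3 (1.44), Hmgn1-/- replicate 1 (1.43), Hmgn1-/- replicate 2 (1.70), Hmgn2-/- replicate 2 (1.69), Hmgn1-/-Hmgn2-/- replicate 2 (1.54) or Hmgn1-/-Hmgn2-/- replicate 3 (1.48). Without WT replicate 1 a departure of Bmp8b also passed, and Bmp2 passed without Hmgn1-/- replicate 3, Hmgn2-/- replicate 1 or Hmgn1-/-Hmgn2-/- replicate 2, so that the count of genes lay between 1 and 3.

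Genes with a pattern most like that of Id2 over the 12 libraries were Tmcc3, Calcoco2 and Lama3, with root mean square differences of 0.20, 0.20 and 0.23 log2 units, beside a median of 2.06 over the 11549 genes searched. For Id3 they were Emp1, Vgll3 and Tex19.1, at 0.22, 0.22 and 0.27, beside a median of 1.36. Lama3, a laminin chain of epithelial basement membranes, had log2 FC values of −2.32, −2.56 and −2.26 in the order Hmgn1-/-, Hmgn2-/- and Hmgn1-/-Hmgn2-/-. Emp1, an epithelial membrane protein gene, had −1.66, −1.85 and −1.38.

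Markers of other cell types were counted in the same way. Of 8 listed trophoblast markers, 7 were tested and 4 fell in each knockout, Krt7, Krt8, Krt18 and Ascl2. Of all genes tested, 5.08%, 4.38% and 5.00% fell in the order Hmgn1-/-, Hmgn2-/- and Hmgn1-/-Hmgn2-/-. The log2 FC was −0.65, −0.46 and −0.69 for Eomes, 0.02, 0.12 and −0.23 for Tfap2c and −0.52, 0.03 and 0.01 for Cdx2 in the order Hmgn1-/-, Hmgn2-/- and Hmgn1-/-Hmgn2-/-. The summed level of the 8 markers was 345, 392 and 534 TMM-scaled CPM in WT mESCs, 86.4, 83.1 and 113 in Hmgn1-/- mESCs, 118, 120 and 158 in Hmgn2-/- mESCs and 97.6, 111 and 124 in Hmgn1-/-Hmgn2-/- mESCs, so that all WT libraries were above all knockout libraries. Krt8 was the most abundant of the list in WT mESCs, at 171, 199 and 274 TMM-scaled CPM, followed by Krt18 at 107, 124 and 179, and Elf5 was at 0 in Hmgn1-/- replicate 2 and Hmgn1-/-Hmgn2-/- replicate 1. Of 7 fibroblast markers, 4 were tested and all 4 fell in each knockout, beside the same shares of all genes. The summed level of that list was 31.5, 24.5 and 31.5 TMM-scaled CPM in WT mESCs, 6.56, 6.02 and 7.20 in Hmgn1-/- mESCs, 6.72, 6.93 and 7.73 in Hmgn2-/- mESCs and 5.18, 8.45 and 6.94 in Hmgn1-/-Hmgn2-/- mESCs, with Acta2 or Thy1 the most abundant gene, and the fibroblast marker Lum was at 0 in all 12 libraries.

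Of 6 markers of 2-cell-like cells, 5, 6 and 6 were tested and 5, 6 and 5 fell in the order Hmgn1-/-, Hmgn2-/- and Hmgn1-/-Hmgn2-/-, while DESeq2 gave 6, 6 and 5. Beside these counts by edgeR and those of mesoderm markers that follow, 5.08%, 4.38% and 5.00% of all genes tested fell in that order. Their sums were 28.4, 22.8 and 19.8 TMM-scaled CPM in WT mESCs, 2.07, 2.05 and 0.871 in Hmgn1-/- mESCs, 2.23, 1.48 and 1.31 in Hmgn2-/- mESCs and 8.32, 7.82 and 5.20 in Hmgn1-/-Hmgn2-/- mESCs. Zscan4c was the most abundant of them in every WT library, and Zfp352 or Tcstv3 was at 0 in some knockout libraries. Of 7 mesoderm markers, 5, 5 and 6 were tested and 2, 1 and 2 fell in the order Hmgn1-/-, Hmgn2-/- and Hmgn1-/-Hmgn2-/-, T in each and Kdr in the first and the last, whereas DESeq2 gave 2 in each. Mixl1, Mesp1 and Tbx6 had positive log2 FC values in each knockout that did not pass the threshold, and the medians of the mesoderm list were 0.81, 0.75 and 0.43. Its sums were 4.69, 8.88 and 9.34 TMM-scaled CPM in WT mESCs, with T the most abundant, and 4.03 to 5.57 over the knockout libraries, and without T they were 3.10 to 4.75 in WT mESCs and 3.76 to 5.15 over the knockout libraries. Of 6 neural markers, 0 passed the threshold by edgeR or by DESeq2 in any knockout, 5, 4 and 5 had an unadjusted p under 0.05, 3 had a positive and 3 a negative log2 FC in each, and the sums ran from 191 to 221 TMM-scaled CPM over the 12 libraries. Without Tubb3, the most abundant, the neural sums were 83.6 to 98.4 in WT mESCs. They were then 71.0 to 82.1, 67.5 to 78.2 and 72.0 to 80.8 in the order Hmgn1-/-, Hmgn2-/- and Hmgn1-/-Hmgn2-/-, so that all knockout libraries were below all WT libraries. The part of any of these cells in the fall of Id2 and Id3 was not tested.

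**Figure D3:**
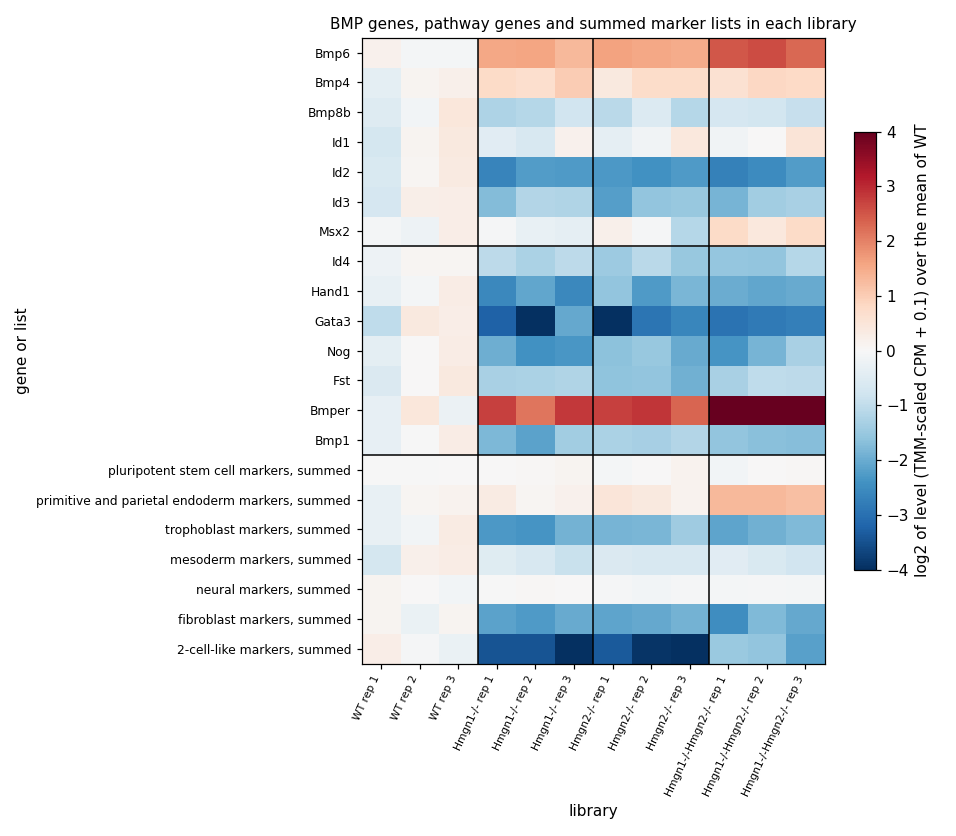
Log2 level of BMP genes, pathway genes and summed marker lists in each library relative to the mean of WT mESCs, after adding 0.1 TMM-scaled CPM; columns are libraries and the colors end at 4 in size. Bmp8b, Id2, Id3, Id4, Hand1, Gata3, Nog, Fst, Bmp1 and the trophoblast, fibroblast and 2-cell-like sums are below WT in every knockout library. Bmp6, Bmp4 and Bmper are above, and the endoderm sum is highest in Hmgn1-/-Hmgn2-/- mESCs, at 1690 to 1804 TMM-scaled CPM.

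Levels of different genes were compared per length, as TMM-scaled CPM per kilobase of annotated exon. On this scale the order of mean levels in WT mESCs was Id1 (154), Id3 (30.0), Id2 (17.4), Bmp4 (15.8), Bmp8b (2.04), Msx2 (0.440), Bmp6 (0.419), Msx1 (0.196) and Bmp2 (0.107). The ranges of the WT libraries overlapped for the neighbours Id3 and Id2, Id2 and Bmp4, and Msx2 and Bmp6, and not for the other neighbours. In each knockout Bmp4 stood second behind Id1, at means of 27.8, 24.4 and 26.8 per kilobase in Hmgn1-/-, Hmgn2-/- and Hmgn1-/-Hmgn2-/- mESCs, and above Id3 in every library. Id3 was next, at 6.49 to 13.3 per kilobase over the knockout libraries, and Id2 followed, at means of 3.33, 3.45 and 3.10. Bmp6 was the fifth, at means of 1.22, 1.27 and 2.44 per kilobase. Its libraries overlapped those of Bmp8b in Hmgn1-/- and Hmgn2-/- mESCs and lay above them in Hmgn1-/-Hmgn2-/- mESCs.

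The sequence before the RefSeq starts of these genes was also examined. Windows of 250 bases before the start given by RefSeq for GRCm38.p6 were taken, where 7 of the 9 genes matched, without Bmp2 and Id1. The positions of genes given above are from GENCODE, and for some genes the RefSeq start lies inside them, 609 bases in for Bmp6, 1048 for Id2, 325 for Id3 and 294 for Msx2. The windows of Bmp6, Id3 and Msx2 lie wholly in exons annotated by GENCODE and that of Id2 with 161 of its 250 bases, so these windows may not be the promoters in use. All 7 windows were searched on both strands for GGCGCC and GGAGCC, GC-rich elements known to bind BMP-activated SMADs, and for CAGACA, which holds the SMAD box. GGAGCC was found in 5 of the 7 windows, those of Bmp4, Bmp8b, Id2, Id3 and Msx2, beside 26.0% of 32851 windows, and in Id2, Id3 and Msx2 its matches lie in annotated exons. GGCGCC was found in 1 of the 7, Id2, beside 9.59%, and CAGACA in that of Bmp8b, beside 17.1%. The sequences below are shown for a target that fell, its relative Id4 and the ligands Bmp4 and Bmp8b, each 5′ to 3′ along the strand of the gene, with motif matches in capitals. That of Id2 is chr12:25096254-25096342 on the minus strand, the part of the window outside annotated exons. It lies inside the gene as given by GENCODE, not before it. That of Id4 is chr13:48260866-48261115 on the plus strand, before the gene. Those of Bmp4 and Bmp8b are chr14:46390670-46390919 on the minus strand and chr4:123104911-123105160 on the plus strand.
Id2: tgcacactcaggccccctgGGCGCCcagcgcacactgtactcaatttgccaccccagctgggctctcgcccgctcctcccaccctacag
Id4: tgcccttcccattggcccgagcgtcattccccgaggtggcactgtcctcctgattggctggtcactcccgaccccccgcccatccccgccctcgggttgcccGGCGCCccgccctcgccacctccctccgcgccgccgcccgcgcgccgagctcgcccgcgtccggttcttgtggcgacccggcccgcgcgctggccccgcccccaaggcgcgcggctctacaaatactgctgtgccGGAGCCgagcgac
Bmp4: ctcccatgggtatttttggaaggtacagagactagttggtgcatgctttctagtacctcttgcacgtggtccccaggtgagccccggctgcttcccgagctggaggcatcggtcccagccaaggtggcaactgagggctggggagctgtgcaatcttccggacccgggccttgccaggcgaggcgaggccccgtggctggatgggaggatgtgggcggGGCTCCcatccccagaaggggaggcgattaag
Bmp8b: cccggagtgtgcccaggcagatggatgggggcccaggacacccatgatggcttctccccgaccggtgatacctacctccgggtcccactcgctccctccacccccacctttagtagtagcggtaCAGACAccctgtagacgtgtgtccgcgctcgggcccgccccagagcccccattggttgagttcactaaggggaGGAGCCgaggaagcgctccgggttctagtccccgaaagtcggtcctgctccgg
The match to GGCGCC begins 231 bases before the start in Id2 and 148 bases before it in Id4, counted from the RefSeq start. Its palindromic letters read the same on both strands. In Bmp4 the match to GGAGCC is on the opposite strand and appears as GGCTCC, 32 bases before the start. Bmp8b has GGAGCC 53 bases and CAGACA 126 bases before the start. The 7 windows held 61.6% to 68.8% G and C, above the median of 52.4% over all windows. The windows of Bmp6 and Msx1 held none of the 3 motifs. A match describes the letters of a window and was not tested as a site of binding.

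The rest of the pathway was described from 69 further genes in 8 lists. Of the 49 genes tested in Hmgn1-/- mESCs, 2 rose and 7 fell, beside 0.898% and 5.08% of all genes tested. In Hmgn2-/- mESCs, 2 of 50 rose and 6 fell, beside 0.776% and 4.38%, and in Hmgn1-/-Hmgn2-/- mESCs 2 of 52 rose and 6 fell, beside 1.30% and 5.00%. The same shares stand beside the counts of each list below. The median log2 FC of the genes tested was −0.03, 0.03 and 0.05, beside 0.00, 0.01 and 0.00 over all genes tested. Without the fold limit the counts were 14, 10 and 13, beside 17.3%, 9.97% and 18.0% of all genes.

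The other BMP ligand genes were low. Of 10, the numbers tested were 2, 2 and 4 in the order Hmgn1-/-, Hmgn2-/- and Hmgn1-/-Hmgn2-/-, and 0 passed the threshold by edgeR or by DESeq2, with 1 at an unadjusted p under 0.05 in each. Bmp7, a ligand of kidney development, ran from 2.02 to 3.11 TMM-scaled CPM over the 12 libraries, with log2 FC values between −0.11 and 0.10. Bmp8a, the neighbour of Bmp8b, ran from 0.416 to 2.29, with log2 FC values between −1.31 and −0.38. Gdf5 and Gdf7, ligands of joint and of spinal cord development, stayed under 0.883. Both were tested in Hmgn1-/-Hmgn2-/- mESCs alone, where their log2 FC was 0.74 and 1.57, with adjusted p values of 0.164 and 0.0140.

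Of 11 receptors and co-receptors, all tested, 1 rose in each knockout, Hjv, which encodes hemojuvelin, a BMP co-receptor of iron regulation, and which is listed in the data under its older symbol Hfe2. Hjv had 1.28, 0.961 and 1.60 TMM-scaled CPM in WT mESCs, 2.68, 2.53 and 3.35 in Hmgn1-/- mESCs, 3.68, 2.72 and 3.69 in Hmgn2-/- mESCs and 2.91, 3.12 and 3.19 in Hmgn1-/-Hmgn2-/- mESCs. All WT libraries were below all knockout libraries. Its log2 FC was 1.13, 1.36 and 1.23 in that order, with adjusted p values of 0.00325, 0.00279 and 0.00104. The call was lost in Hmgn1-/- mESCs without WT replicate 2 (0.99), Hmgn1-/- replicate 1 (1.17, adjusted p = 0.0119) or Hmgn1-/- replicate 3 (1.00, adjusted p = 0.0221), and in Hmgn2-/- mESCs without WT replicate 1 (1.33, adjusted p = 0.0101) or WT replicate 2 (1.22, adjusted p = 0.0142). Bmpr1a, which encodes a type I receptor, ran from 65.5 to 84.8 TMM-scaled CPM, with log2 FC values between 0.14 and 0.21. The type II receptor genes Acvr2a and Acvr2b had log2 FC values between 0.10 and 0.25 and between 0.33 and 0.43, and the co-receptor gene Eng between −0.34 and −0.06.

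Of the 4 SMADs that carry the signal, 3 were tested and 0 passed the threshold by edgeR or by DESeq2 in any knockout, with 2, 1 and 2 at an unadjusted p under 0.05. Smad1 had 22.3, 19.7 and 19.3 TMM-scaled CPM in WT mESCs, 33.6, 34.8 and 31.9 in Hmgn1-/- mESCs, 34.3, 32.7 and 26.6 in Hmgn2-/- mESCs and 33.5, 31.2 and 31.4 in Hmgn1-/-Hmgn2-/- mESCs. Its groups did not overlap with WT, and its log2 FC of 0.71, 0.62 and 0.65 was under the fold limit, with adjusted p values of 4.25e-05, 0.00365 and 8.26e-05. Smad5 had log2 FC values between −0.05 and 0.02, and Smad4, the common partner, between 0.14 and 0.18. Smad9 was not tested, at 0.396 TMM-scaled CPM or less.

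Of 8 intracellular inhibitors, all tested, 0 passed the threshold by edgeR or by DESeq2 in any knockout, with 5, 3 and 4 at an unadjusted p under 0.05. Smad7, an inhibitory SMAD, ran from 69.6 to 117 TMM-scaled CPM, with log2 FC values between 0.43 and 0.49. The transcriptional corepressor genes Ski and Skil had values between 0.31 and 0.36 and between −0.43 and −0.31. Smurf2, a ubiquitin ligase for receptors and SMADs, had values between 0.20 and 0.22.

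Of 17 secreted antagonists and modulators, 10 were tested, and 1 rose and 3 fell in Hmgn1-/- mESCs, while 1 rose and 2 fell in each of the other knockouts. Bmper, whose product binds BMPs outside the cell, had 0.125, 0.283 and 0.139 TMM-scaled CPM in WT mESCs, 1.76, 1.15 and 1.93 in Hmgn1-/- mESCs, 1.77, 1.93 and 1.31 in Hmgn2-/- mESCs and 5.82, 4.88 and 5.31 in Hmgn1-/-Hmgn2-/- mESCs. As with Bmp6, the Hmgn1-/- and Hmgn2-/- libraries overlapped and those of the double knockout stood above both. The log2 FC of Bmper was 3.24, 3.30 and 4.97, with adjusted p values of 5.14e-05, 0.000169 and 3.47e-08. It also rose in Hmgn1-/-Hmgn2-/- mESCs against Hmgn1-/- mESCs (log2 FC 1.72, adjusted p = 6.51e-05) and against Hmgn2-/- mESCs (log2 FC 1.65, adjusted p = 0.00929).

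Nog, which encodes the BMP antagonist noggin, had 1.66, 2.26 and 2.74 TMM-scaled CPM in WT mESCs and ran from 0.334 to 0.835 over the knockout libraries. Its log2 FC was −2.43, −1.80 and −1.95, and the call in Hmgn2-/- mESCs was lost without WT replicate 3 (−1.60, adjusted p = 0.0114). Fst, which encodes follistatin, an antagonist of activins and BMPs, had 3.66, 5.49 and 7.22 TMM-scaled CPM in WT mESCs and ran from 1.37 to 2.62 over the knockout libraries. For both genes all knockout libraries were below all WT libraries. The log2 FC of Fst was −1.29, −1.71 and −1.15, and the call in Hmgn1-/-Hmgn2-/- mESCs was lost without WT replicate 3 (−0.87) or Hmgn1-/-Hmgn2-/- replicate 1 (−1.06, adjusted p = 0.0160). Nbl1, an antagonist of the DAN family, had log2 FC values of −1.42, −1.06 and −1.37, with adjusted p values of 0.00130, 0.0184 and 0.0104, and passed in Hmgn1-/- mESCs. It also passed in Hmgn1-/-Hmgn2-/- mESCs without WT replicate 1 (−1.45, adjusted p = 0.00474). Chrd, which encodes chordin, had values between 0.34 and 0.66, and those of Twsg1, Tsku and Dand5 lay between −0.23 and 0.15.

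Of the proteases that process BMP ligands or their antagonists, 4, 5 and 5 of 6 were tested and 1 fell in each knockout, Bmp1, a protease of procollagen and chordin that is no BMP ligand. Bmp1 had 11.1, 13.7 and 17.0 TMM-scaled CPM in WT mESCs and 3.06 to 6.18 over the knockout libraries, which did not overlap with WT. Its log2 FC was −1.76, −1.25 and −1.66, with adjusted p values of 1.63e-05, 0.000442 and 3.94e-06. The proprotein convertase gene Pcsk6 had log2 FC values between 0.54 and 0.60, Furin between 0.18 and 0.29, and the relative of Bmp1 Tll1 between −0.13 and 0.38. Pcsk5 was at 1.04 TMM-scaled CPM or less.

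Of 10 other target genes, 8 were tested and the same number, 3, fell in each knockout, with medians of −0.53, −0.50 and −0.64 over the list. Id4, the remaining Id gene, had 3.72, 4.52 and 4.51 TMM-scaled CPM in WT mESCs, 1.99, 1.72 and 2.02 in Hmgn1-/- mESCs, 1.50, 1.97 and 1.43 in Hmgn2-/- mESCs and 1.38, 1.36 and 1.86 in Hmgn1-/-Hmgn2-/- mESCs. The knockouts overlapped each other and lay below WT, as in Id2 and Id3. The exons of Id4 share 171 bases with those of Gm49291 and 82 with those of A330033J07Rik, both on the opposite strand and not among the genes counted. Id4 had a log2 FC of −1.14, −1.35 and −1.46, with adjusted p values of 0.000527, 0.00108 and 0.000119. Hand1, a gene of trophoblast giant cells and extraembryonic mesoderm, had 4.16, 4.81 and 6.35 TMM-scaled CPM in WT mESCs and 0.767 to 1.65 over the knockout libraries. Its log2 FC was −2.51, −1.93 and −2.11. Gata3, a gene of trophoblast and T cell development, had 2.00, 5.43 and 4.93 TMM-scaled CPM in WT mESCs and 0.0477 to 0.917 over the knockout libraries. Its log2 FC was −3.19, −3.44 and −3.03, and neither gene reached the lowest WT library in any knockout library. Log2 FC values lay between −0.26 and 0.08 for Tbx3, between 0.13 and 0.45 for Gata2, between −0.76 and −0.26 for Hey1 and between −0.80 and −0.52 for Dlx3.

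The E proteins bound by the Id proteins were also examined. Of 3 genes, all tested, 0 passed the threshold by edgeR or by DESeq2 in any knockout, with 0, 0 and 1 at an unadjusted p under 0.05. Tcf3 ran from 253 to 295 TMM-scaled CPM over the 12 libraries, with log2 FC values between 0.03 and 0.14. Tcf12 lay between 0.09 and 0.12 and Tcf4 between 0.17 and 0.22 on the log2 scale.

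**Figure D4:**
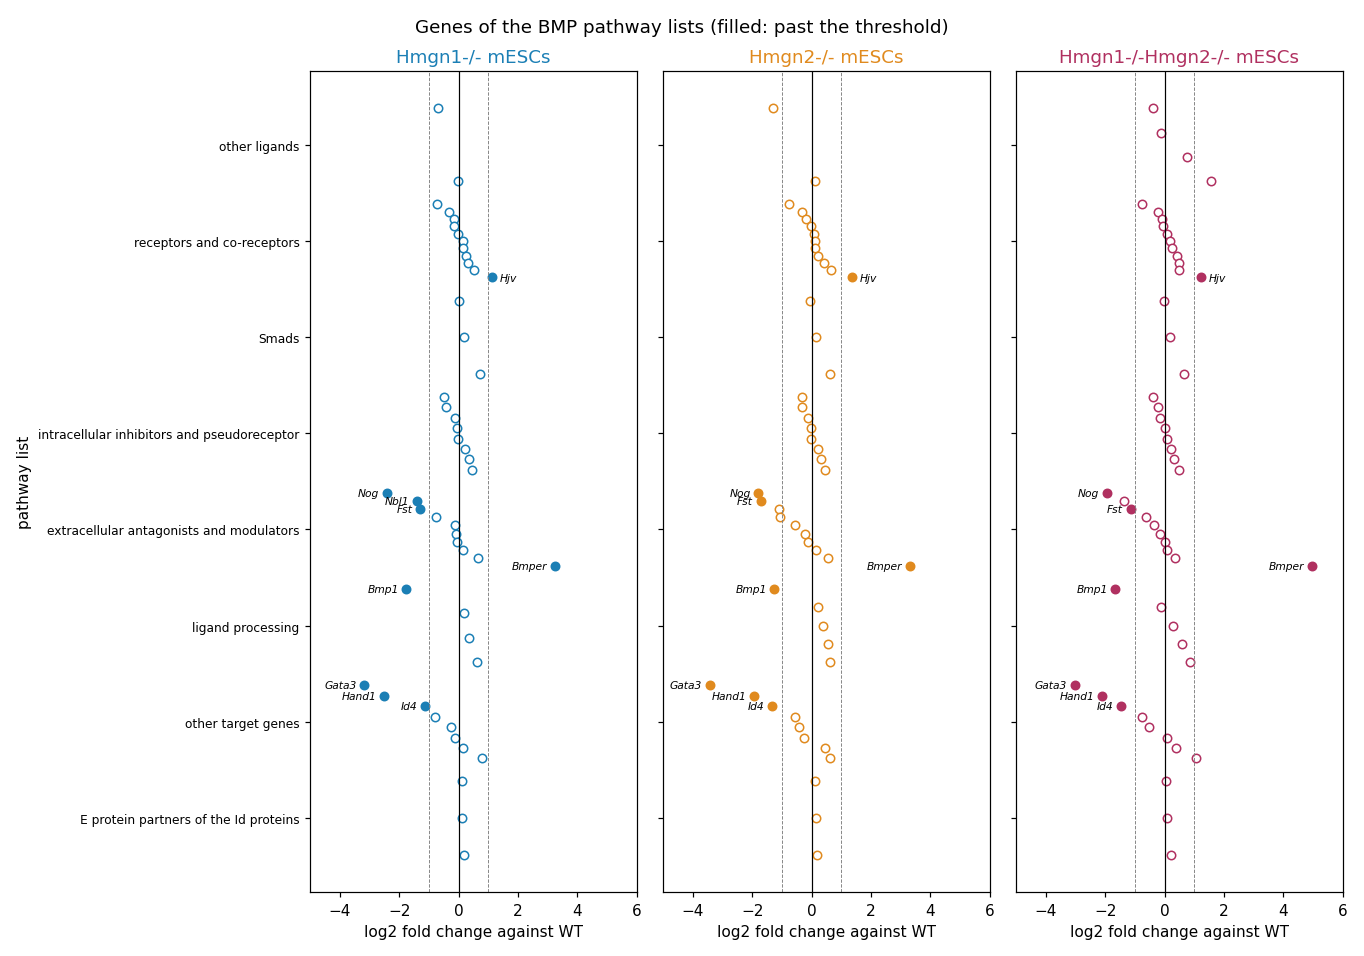
Log2 FC against WT mESCs of the pathway genes tested, by list and knockout; filled, named points passed the threshold and dashed lines mark a log2 FC of 1 in size. Bmper, at 3.24, 3.30 and 4.97, and Hjv are the genes that rose, and Nog, Fst, Bmp1, Id4, Hand1 and Gata3 fell in each knockout, with Nbl1 in Hmgn1-/- mESCs.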

How the data were processed

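Poly-A libraries were sequenced from both ends, and STAR was used for alignment to mm10. The authors deposited counts, the reads on each of 23412 genes, as whole numbers that had not been normalized. The counting program, its annotation and its use of the strand are not stated. Genotypes and replicate numbers were taken from the labels. In R 4.3.3, edgeR 4.0.16 was run with TMM scaling, filterByExpr and the quasi-likelihood test, on the 6 libraries of the groups compared or on all 12 for additivity and for any difference among genotypes. P values were adjusted over all genes tested (Benjamini-Hochberg). DESeq2 1.42.0 was an alternative. The steps were tested on simulated data. Members and lists were chosen with earlier results of these data known. From the lists, every gene past the threshold against WT and up to 4 further genes of highest mean count were named. Likeness used log2 TMM-scaled CPM with a prior count of 2. Exon lengths and overlaps come from GENCODE for GRCm38. The other assays of the study were not analysed here.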

Additional observations from a re-analysis of the deposited data

Results flagged for a closer look

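Departures of the double knockout line from the sum of the log2 changes of the other knockout lines were tested with edgeR. They passed the threshold for 2 of 8 BMP ligand and target genes, 5 of 52 pathway genes and the edited gene Hmgn1. Of all 14323 genes tested, 3.48% passed. Of the marker lists, 7 of 14 endoderm markers also departed past the threshold, 1 above the sum and 6 below it, and 4 of 7 trophoblast, 3 of 4 fibroblast and 5 of 6 2-cell-like markers did so above it. By edgeR, 0 of 10 pluripotent stem cell, 0 of 6 mesoderm and 0 of 6 neural markers departed, with 5, 3 and 5 at an unadjusted p under 0.05, and DESeq2 gave 0, 1 and 0. Among the BMP targets, the double knockout lay 2.23 log2 units above the sum for Id2 and 1.60 above it for Id3. Hmgn1 departed by −2.63, with 141 TMM-scaled CPM or less in Hmgn1-/- mESCs and 21.5 or less in the double knockout. The co-receptor gene Hjv departed by −1.24. Among genes that fell in each knockout, the departure was 2.29 for Nog, 1.87 for Fst, 1.37 for Bmp1 and 2.34 for Hand1. Id4 and Gata3 also fell in each knockout and did not depart past the threshold, which does not show that their changes add up. Hand1 was the 1 gene past it of 8 other target genes tested, whose departures ran from −0.35 to 3.62. The highest of these departures was that of Gata3, which was low in the knockouts, down to 0.0477 TMM-scaled CPM. All 4 genotypes enter this comparison, and the WT libraries count in it with both knockouts. Each knockout is 1 clone, and the double knockout comes from the Hmgn2-/- line. A departure between clones therefore cannot be told apart from a departure between genotypes. What lies behind these departures was not tested.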

How the results depend on the processing

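The counts of BMP ligand and target genes past the threshold against WT were 4, 3 and 3 in the order Hmgn1-/-, Hmgn2-/- and Hmgn1-/-Hmgn2-/- with DESeq2, RLE scaling, all 12 libraries in a single fit and the replicate number as a replicate block. Without a fold limit they were 5, 3 and 4, and with no filter beyond 1 count 5, 3 and 3. For any difference among the 4 genotypes, the DESeq2 likelihood ratio test, an alternative chosen after seeing the data, gave 6 genes, with Bmp2. The replicate block gave 1 gene for Hmgn1-/-Hmgn2-/- against Hmgn1-/- and 2 for additivity. Libraries of different genotypes with the same replicate number correlated positively in all 18 pairs (0.0268 to 0.305, median 0.143), against at most 0.0711 for those with different numbers, and 9 of 12 libraries correlated best with their own number. This is a hint of pairing from the data, not from the design. The block stayed an alternative because its use required a correlation over 0.1 in every pair, and 13 of the 18 had it. All same-number pairs of WT and Hmgn1-/-Hmgn2-/- libraries had it, at 0.169, 0.133 and 0.104, and in that comparison the call of Nbl1 changed with the block. Leaving out single libraries gave 3 to 5, 3 to 4 and 3 to 4 genes against WT, 0 to 1 for Hmgn1-/-Hmgn2-/- against Hmgn1-/-, 1 to 3 for additivity and 4 to 6 for any difference. Of the pathway genes, 14 passed in Hmgn1-/- mESCs and 13 in Hmgn1-/-Hmgn2-/- mESCs without a fold limit, by the construction of that alternative. Nbl1 passed in Hmgn1-/-Hmgn2-/- mESCs with DESeq2 (−1.37), no filter (−1.37), the replicate block (−1.41) and the fit of 12 libraries (−1.37).

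The sign turned when libraries were left out for Id1 in Hmgn2-/- mESCs without WT replicate 1 (−0.24) or Hmgn2-/- replicate 3 (−0.24; range over left-out libraries −0.24 to 0.26), and in Hmgn1-/-Hmgn2-/- mESCs without WT replicate 1 (−0.10) or Hmgn1-/-Hmgn2-/- replicate 3 (−0.05; range −0.10 to 0.40). It also turned for Msx2 in Hmgn2-/- mESCs without Hmgn2-/- replicate 3 (range −0.46 to 0.094) and for Bmp6 in Hmgn2-/- against Hmgn1-/- mESCs without Hmgn1-/- replicate 3 (range −0.0099 to 0.13). None of these differences had passed the threshold, and the cause was not tested. Some libraries stood apart from their replicates. The chi-square per degree of freedom was 36.4 and 20.6 for Hmgn2-/- replicate 3 against its replicates, and 8.11 between the other Hmgn2-/- libraries. For WT replicate 1 it was 11.2 and 12.1, and it was 3.40 between the other WT libraries. Id2, Id3 and Bmp6 kept their direction and side of the threshold against WT in every alternative. Depth limits Bmp2 and Msx1, with at most 18 counts in a library. The adjusted p values set differences between groups against the spread between replicates, and each knockout group is 1 clone.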
